A study of Saccharomyces cerevisiae with 14 samples.

Results

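Sites listed under genes of ribosomal and small nucleolar RNA, 6 in all, were followed through yeast meiosis, out of 1184 distinct sites in the deposited table. They were taken by name, as every entry whose identifier starts with RDN or snR. That gave 10 entries under 8 gene names, which came down to 6 sites once entries repeating a chromosome, position and strand under another name were merged. Of these, 4 are listed under ribosomal RNA genes (RDN18, RDN25 and RDN37, copies 1 and 2) and 2 under the small nucleolar RNA genes snR33 and snR86. The sites are called by those names below, although the listed positions of RDN18 and snR33 run past the ends of these genes in the reference genome. The names were not checked by any expression measure, since the table holds none.

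The cells were diploid yeast of the SK1 strain, MAT a/alpha, homozygous for lys2, ho::LYS2 and ndt80::LEU2, and meiosis was induced in all of them. Loss of NDT80, the transcription factor needed to leave pachytene, was shared by every sample, so the course describes cells that should not pass that stage. There was 1 library of polyA RNA at each of 0, 1, 2, 3, 3.5, 4, 5, 6, 7 and 8 h. A further 4 samples at 8 h, 2 of the same genotype and 2 that also carried ime4::HIS3 on both copies, were not analysed here. The value for each site is a fraction that the deposited table's name calls a cleavage efficiency, read here as the share of RNA cut by MazF, an endonuclease that cuts RNA before an ACA motif whose first A is not methylated. Reads behind a value are unknown, so no counting interval can be given. There were no replicates, so each error below reflects how far libraries lay from a course fitted through them. In the limma fits that scatter is pulled toward the scatter of the other sites, so an error is not set by the site alone. Whether each library had its own culture is not in the labels.

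The ribosomal RNA genes stand in a long tandem array on chromosome 12. RNA polymerase I transcribes RDN37 as a 35S precursor, from which the 18S RNA of the small subunit (RDN18) and the RNAs of the large subunit (RDN58 and RDN25, the latter giving 25S) are cut out, leaving spacers to be degraded. Box H/ACA small nucleolar RNAs guide pseudouridylation of ribosomal RNA, and both snR33 and snR86 belong to this class and act on the large subunit. Their class is named for 2 short boxes, of which one is an ACA close to the 3′ end. Mature ribosomal and small nucleolar RNAs carry no poly(A) tail, while precursors and decay intermediates of both can be polyadenylated in the nucleus before trimming by the exosome. Which form was read in these polyA libraries was not tested.

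The sequences below come from RefSeq's R64 genome of the S288C strain, by gene name. They are shown because the capitals mark each ACA, the motif that MazF reads, beside the place the table names. The 2 small nucleolar RNA pieces are the last 30 bases of each annotated gene (snR33 on the minus strand at chrIII:142364-142393, snR86 on the minus strand at chrXIII:762110-762139). The third piece covers bases 1221 to 1250 of RDN25-1 (minus strand, chrXII:453932-453961) and holds the listed position 1239.
snR33: tggaattgatatagaagtgtgtggACAatc
snR86: agaatgtagtttcatacccgggagaaattc
RDN25-1: agACAgccggacggtggccatggaagtcgg

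The snR33 piece ends with its ACA box, 3 bases before the end of the gene. In snR86 the last ACA of the gene stood 84 bases before its end, so the printed piece holds none. The RDN25-1 piece holds an ACA at base 1223 and none at base 1239. None of the listed positions that fall inside an R64 gene of the same name starts an ACA there, and which genome build the table uses is not stated in labels or headers. No base of R64 was therefore assigned to a site. In the table's own coordinates all 6 sites are on the minus strand: RDN18-1 at position 2136 of the gene (chromosome 12, 454482), RDN18-2 at 2137 (463561), RDN25-1 at 1239 (452830), RDN25-2 at 1240 (461908), snR33 at 327 (chromosome 3, 146791) and snR86 at 996 (chromosome 13, 751622).

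The listed positions say roughly where each site lies. The table counts RDN18-1 and RDN37-1 from the same base, since the site at 454482 has position 2136 under both names, and it puts the start of RDN25-1 2549 bases after that of RDN37-1. In R64 the 25S gene starts 2551 bases after the 18S gene and 3251 after RDN37-1, so the table's count is close to one that starts with the 18S gene. The 18S gene of R64 is 1800 bases long and RDN58 starts 2161 bases after its first base. A position of 2136 counted that way lies past the 18S gene, in the spacer before RDN58, while the RDN25 sites lie inside the 25S gene. Position 996 lies inside the 1004 bases of snR86, close to its 3′ end. Position 327 lies 144 bases past the 183 bases of snR33, and the next R64 gene in that direction, CTO1 on the same strand, is 193 bases away. The listed counts of RDN25 and snR86 do not meet an ACA in R64. Those of RDN18 and snR33 run past their genes and were not checked for one. Counts under RDN37 were checked from the R64 start of RDN37, not from that of the 18S gene. Each of these placements therefore carries an unknown offset.

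The copies of each ribosomal RNA gene gave almost the same value in every library. In R64 the 6858 bases of RDN37-1 and RDN37-2 are identical, and neither labels nor headers say how reads that match both were shared out. In the listed coordinates the RDN18 and RDN25 sites lie 1652 bases apart in copy 1 and 1653 in copy 2. The identity in R64 need not hold for the build used. Between the RDN25 sites the largest difference was 0.000645, and the values were equal at 0 h. Between the RDN18 sites the largest difference was 0.0191, at 3.5 h, with a median size of 0.00652. The copies therefore count as 1 RDN18 site and 1 RDN25 site in what follows, and a value is given for copy 1 where only one is named.

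The RDN18 and RDN25 sites (both copies) and snR86 had a value in all 10 libraries, while snR33 had 7, with none at 1, 7 or 8 h. Of the 1178 other sites 209 (17.7%) had a value in all 10, and those 209 are the reference used below. Their median cleavage was 0.927 in the first library and 0.872 in the last, with 0.880 at 4 h and a low of 0.855 at 6 h. The number of sites with a value in a library ran from 299 at 0 h to 1171 at 3.5 h.

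**Figure D1:**
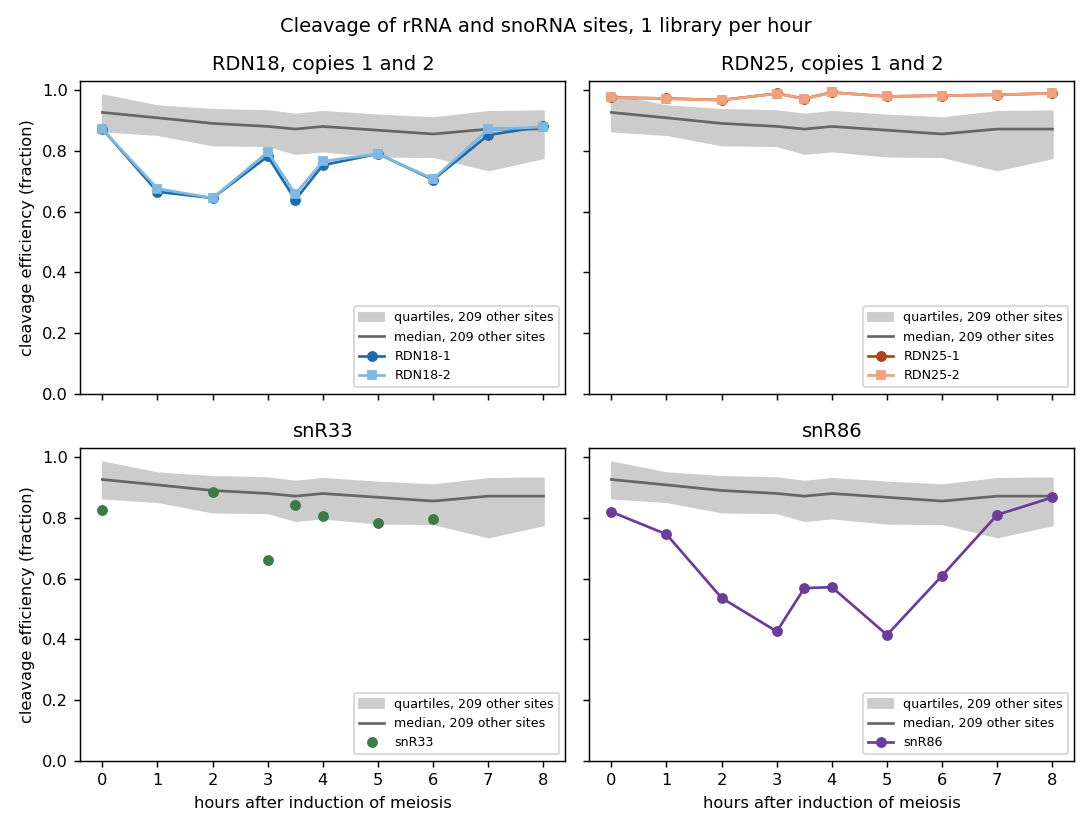
Cleavage efficiency (fraction, y axis) by hour after induction of meiosis (x axis) for the 6 sites, 1 point per library, over the median (line) and quartiles (grey band) of 209 other sites with values in all 10 libraries; no replicates, so no error bars. The RDN25 sites (copy 1 lies under copy 2) stay above 0.96, while the RDN18 sites and snR86 start and end above 0.81 and lie lower in between.

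The RDN25 site was cut almost completely throughout. In order of the hour (0, 1, 2, 3, 3.5, 4, 5, 6, 7, 8), the values of RDN25-1 were 0.976, 0.973, 0.967, 0.989, 0.972, 0.993, 0.979, 0.982, 0.985 and 0.9895. No library stood apart, and a RDN25 site was the highest of those measured in each of the 10 libraries. The range over the course was 0.0252, and 4 of the 209 reference sites had a smaller one. A fraction this close to 1 has little room to rise, and the narrow range is a description.

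Against the reference, whose median was lower in later libraries, the RDN25 site stood lowest in rank at 0 and 1 h. It was 0.0493 above the reference median at 0 h, 0.0770 above it at 2 h, 0.127 above it at 6 h and 0.118 above it at 8 h. It exceeded 151 of the 209 reference sites at 0 h, 198 at 6 h and, in the last library, 187. Its slope was 0.00192 ± 0.00162 per hour (SE, limma, adjusted p = 0.562, 10 libraries), with a 95% interval from -0.00160 to 0.00545. With every library shifted to 1 median the slope was 0.00862 (adjusted p = 0.0657), and scaled it was 0.00915 (adjusted p = 0.0558), neither of which passed. Late libraries (5, 6, 7 and 8 h) were higher than early ones (0, 1 and 2 h) by 0.0120 ± 0.0112 (adjusted p = 0.566), which did not pass. With every library shifted to 1 median, that difference was 0.0539 ± 0.0117 and passed (limma, adjusted p = 0.0337), as it did with libraries scaled to 1 median (0.0573 ± 0.0119, adjusted p = 0.0279). Of the 496 tested sites, 0.806% were called higher late and 1.41% lower late after shifting, and 1.41% and 3.23% after scaling. The RDN25 copies are counted in these shares, as 2 of the 4 sites called higher after shifting and 2 of the 7 after scaling. Both settings measure the site against the other sites, while its own range was 0.0252.

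The RDN18 site was cut less and varied more. Over the same 10 libraries in that order, RDN18-1 had values of 0.872, 0.665, 0.645, 0.782, 0.639, 0.753, 0.790, 0.705, 0.852 and 0.881. The lowest values were at 1, 2 and 3.5 h, and the highest at both ends of the course. RDN18-2 followed it, from 0.644 at 2 h to 0.879 at 8 h. The largest step between neighbouring libraries was from 0 to 1 h, by 0.207, and 167 of the 209 reference sites had a smaller largest step. The site lay below the reference median in 9 of 10 libraries, by 0.0542 at 0 h and by 0.246 at 2 h, and was 0.00880 above it at 8 h. Only 15 of the 209 reference sites were lower than it at 1 h, and 109 were lower at 8 h.

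Neither a straight line nor the windows gave a call for the RDN18 site. Its slope was 0.0130 ± 0.0116 per hour (SE, limma, adjusted p = 0.583), with a 95% interval from -0.0122 to 0.0382. It was 0.0299 without the 0 h library (adjusted p = 0.218, unadjusted p = 0.0173) and 0.00554 without the 8 h library (adjusted p = 0.824), and 0.0197 with libraries shifted to 1 median (adjusted p = 0.377). Late libraries differed from early ones by 0.0796 ± 0.0687 (adjusted p = 0.531), with an interval from -0.0698 to 0.229. The size of the difference depended on the first libraries: it was 0.152 without 0 h, 0.0485 without 1 h and 0.0382 without 2 h, and did not pass in any of these.

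The snR86 site went down in mid course and came back. From 0 to 8 h its 10 values were 0.820, 0.746, 0.536, 0.426, 0.569, 0.572, 0.415, 0.610, 0.810 and 0.868. All 6 values from 2 to 6 h lay below the 4 values at 0, 1, 7 and 8 h. Those 4 libraries were also the ones with the fewest sites with a value, and whether the course follows that number was not tested. The snR86 site was the lowest of those measured in 9 libraries, and RDN18-1 was the lowest at 1 h. Its range of 0.453 was larger than that of 197 of the 209 reference sites. Below the reference median by 0.107 at 0 h, it was 0.455 below it at 3 h and 0.453 below it at 5 h, and 0.00419 below it at 8 h. At 3 h only 8 of the 209 reference sites were cut less, and at 8 h 96 were.

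A straight line does not describe such a course. The slope of snR86 was 0.00919 ± 0.0197 per hour (limma, adjusted p = 0.849) and late libraries differed from early ones by -0.0252 ± 0.107 (adjusted p = 0.918), with an interval from -0.258 to 0.208. None of the 5 sites tested passed the slope test, with 0 at an unadjusted p under 0.05. Over all 591 tested sites 3.05% were called falling and 0% rising. None of the 5 passed for late against early either, with 0 unadjusted, where 3.63% of 496 sites were called lower late and 0% higher late.

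**Figure D2:**
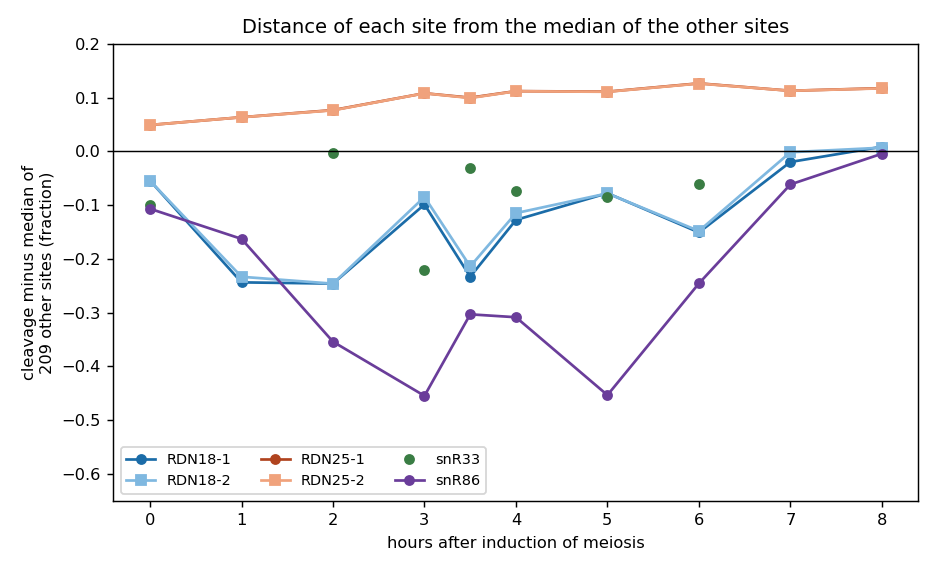
Cleavage efficiency of each site minus the median of 209 other sites in the same library (fraction, y axis) by hour (x axis), with a line at 0. The RDN25 sites lie between 0.0493 and 0.127 above the median (copy 1 lies under copy 2), snR86 reaches 0.455 below it at 3 h, and the RDN18 sites and snR86 lie within 0.01 of it at 8 h.

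A squared term of the hour was then fitted at all 591 sites, a choice made after these courses were seen, so it is no independent test of them. The term was positive at snR86, at 0.0237 ± 0.00436 per hour squared (SE, limma, adjusted p = 0.0159), with a 95% interval from 0.0141 to 0.0333. In the fit it lifts the 0 h and 8 h values by 0.379 against 4 h. Positive terms were called at 3.55% of the 591 sites and negative ones at 0%, and by p snR86 had rank 8 among the sites. The sign is common in the whole set: 70.7% of the 591 terms were positive. At an unadjusted p under 0.05 (limma) 95 were positive and 9 negative. The call was lost without the 0 h library (0.0255, adjusted p = 0.0724), the 1 h library (0.0229, adjusted p = 0.0621) or the 8 h library (0.0268, adjusted p = 0.0788), and it held without any other library. For RDN18-1 the term was 0.00900 ± 0.00402 (adjusted p = 0.278) and for RDN18-2 0.00842 ± 0.00402 (adjusted p = 0.312), so the RDN18 site did not pass, and without 0 h the term of RDN18-1 was 0.00262. The term of RDN25-1 was -2.86e-05 ± 0.000657 (adjusted p = 0.988). The difference in curvature between the small nucleolar and the ribosomal RNA sites was not tested.

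**Figure D3:**
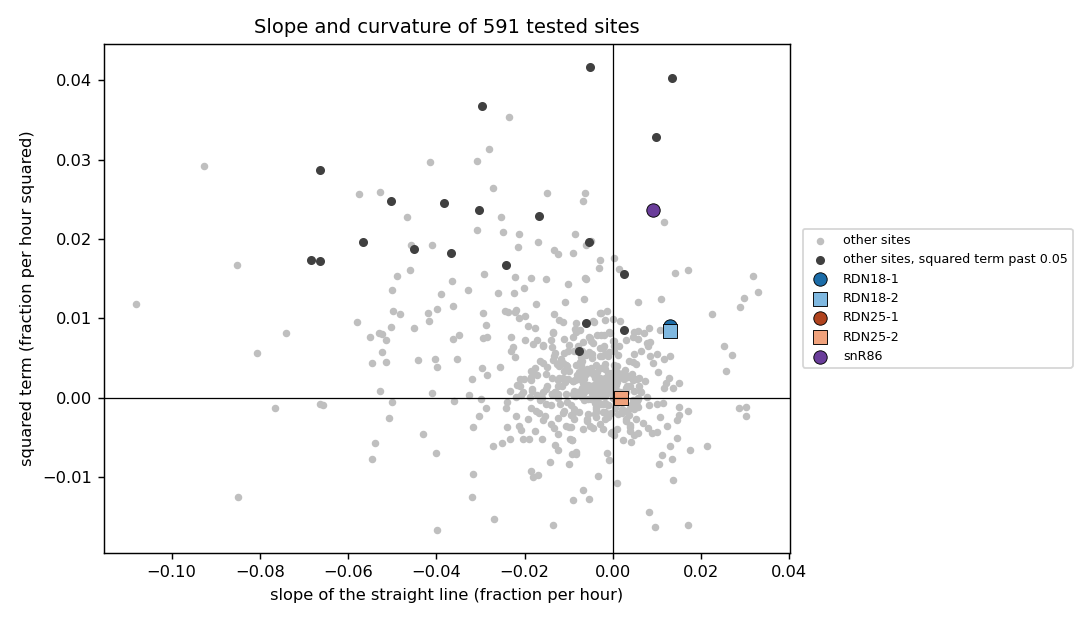
Slope of a straight line (fraction per hour, x axis) and squared term of the hour (fraction per hour squared, y axis) for the 591 sites tested with limma, 1 point per site; dark points are other sites whose squared term passed an adjusted p of 0.05. snR86 lies at a slope of 0.00919 and a squared term of 0.0237, while the RDN25 sites lie next to the origin (copy 1 lies under copy 2).

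As a description, the ends of the course were compared with its middle at snR86 and at the 209 reference sites. The measure takes each end of a course against the site's own median of 2 to 5 h. It follows the shape already seen in snR86, so its ranks are no independent test of that shape. Sites without a value in every library were not compared. Some of those, such as ASE1 and PUF3, had a larger squared term than snR86. So did SPO24, which is 1 of the 209 reference sites, with a term of 0.0287. Its values at 0 h and 8 h were 0.723 and 0.152 above its middle. The value of snR86 at 0 h was 0.284 above its own median of 2 to 5 h, and its value at 8 h was 0.331 above it. All 209 reference sites had a smaller rise at 8 h, and in all 209 the smaller of both differences was below the 0.284 of snR86. For RDN18-1 the differences were 0.119 and 0.128, and 196 of the 209 reference sites had a smaller value of the lesser one. For RDN25-1 they were -0.00346 and 0.0102. Among the reference sites 16 (7.66%) stood at least 0.1 above their middle at both ends, and 43 (20.6%) ended above their 0 h value. The RDN18 site ended higher by 0.00824, the RDN25 site by 0.0137 and snR86 by 0.0477.

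**Figure D4:**
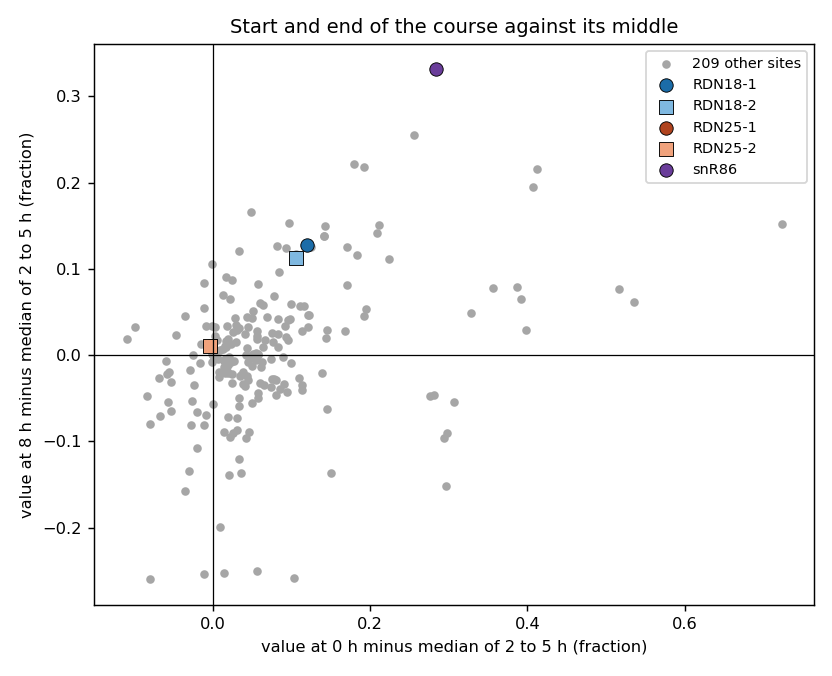
Value at 0 h (x axis) and at 8 h (y axis), each minus the site's own median from 2 to 5 h (fraction), for 209 other sites with values in all 10 libraries (grey) and the 5 such sites listed under ribosomal and small nucleolar RNA genes (both copies drawn). snR86, at 0.284 and 0.331, is the highest point on the y axis, and the RDN18 copies lie at 0.119 and 0.128 and at 0.106 and 0.113.

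The low libraries of the RDN18 site and of snR86 were only partly the same. At 2 h and 3.5 h both were low, with 0.645 and 0.536, then 0.639 and 0.569. At 3 h and 5 h the RDN18 site was at 0.782 and 0.790, while snR86 had its lowest values. At 1 h the RDN18 site was at 0.665, while snR86 was still at 0.746. Both had their highest value at 8 h.

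The snR33 site was sparsely measured. Its values were 0.826 (0 h), 0.887 (2 h), 0.661 (3 h), 0.841 (3.5 h), 0.807 (4 h), 0.783 (5 h) and 0.796 (6 h). Apart from 3 h, its values lay within 0.783 to 0.887. It was below the reference median in all 7 libraries, with differences from -0.220 at 3 h to -0.00368 at 2 h. With 7 values it fell under the minimum of 8 for the tests. With a minimum of 4 its slope was -0.00800 ± 0.0163 per hour (limma, adjusted p = 0.847 over 1130 sites), and no value shows whether it came back after 6 h as snR86 did.

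Ordered by the median over the course, the RDN25 site was first (0.981), then snR33 (0.807 over 7 libraries), RDN18-2 (0.778), RDN18-1 (0.767) and snR86 (0.591). The lowest RDN25 value, 0.967, was above the highest value of every other site, 0.887 in snR33. The ranges of snR33, the RDN18 site and snR86 overlapped over the course. Within single libraries snR86 was below the RDN18 site in all but the 1 h library. It was also below snR33 wherever both had a value. The snR33 site was above RDN18-1 in some libraries and below it in others. Their order was not tested.

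Values of the small nucleolar RNA sites were often shared to all digits given with a site outside these 6 in the same library. This was so in 5 of 7 libraries at snR33 and in 6 of 10 at snR86, and in 0 of 10 at each ribosomal RNA site. Sharing among the 6 sites, as between the RDN25 copies at 0 h, is not counted. Among other sites with a value, 44.4% at 0 h to 59.2% at 3 h shared one below 1. Sites at exactly 1 are in the base of these shares but are not counted as sharing. Among values below 1 the shares would therefore be higher, and the difference from the small nucleolar RNA sites was not tested. At 5 h, where snR86 was at its lowest, 5 other sites had its value, and at 3 h none had. The precision of such values is unknown, and the part that read number had in the courses was not tested.

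The sites with courses most like these were found by Pearson's r over shared libraries, with SDs of at least 0.01, as a description of the top of a long list. RDN18-1 was most like its copy RDN18-2 (r = 0.996, 10 libraries). Next came THI7, a thiamine transporter gene, at position 1419 (r = 0.885, 10 libraries), and FMP41 at 564 (r = 0.874, 9 libraries). THI7 moved between 0.884 and 1.00 and FMP41 between 0.00849 and 0.0496, so the likeness is one of shape and not of level. The sites most like snR86 were in RAD57, a gene of recombinational repair, at 1450 (r = 0.862, 9 libraries), UPS2 at 947 (r = 0.850, 8 libraries) and MET10, which encodes a subunit of sulfite reductase, at 3155 (r = 0.844, 10 libraries). All of these share their libraries. The RDN25 sites had too small an SD and snR33 too few values for this.

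Genes that make, process or use these RNAs had few sites with enough values. The list of snoRNP proteins had 1 site, in CBF5, the pseudouridine synthase of H/ACA particles. Its 3 values were 0.943 (0 h), 1.00 (3.5 h) and 0.903 (4 h), too few for a test. The list of RNA polymerase I and its factors had 3 sites, in RPB5, SIR2 and NET1, none with enough values. The list of rRNA modification enzymes had 0 sites, and of 5 sites in cytosolic ribosomal proteins none had enough values. In that last group the values ran from 0.493 in RPP2B at 6 h to 1.00 in RPL11A at 5 h and RPL20B at 6 h, which are named as the lowest and highest. RPL25 was between 0.595 and 0.881, and RPS16A between 0.782 and 0.955.

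Of 3 sites in genes of rRNA and snoRNA processing and decay, 2 were tested and neither passed for slope or squared term (0 unadjusted, limma). NRD1 encodes an RNA-binding protein that ends transcription of small nucleolar RNAs. Its site at position 1981 had no value at 0 h, and from 1 to 8 h its values were 0.669, 0.700, 0.947, 0.533, 0.486, 0.350, 0.392, 0.526 and 0.949. It was low from 3.5 to 7 h and high at 3 and 8 h, with a squared term of 0.0258 (adjusted p = 0.322). REX2, an RNA exonuclease gene, moved between 0.678 at 8 h and 1.00 (slope -0.0186 ± 0.0152, adjusted p = 0.554). Of 13 sites in ribosome biogenesis factors 1 was tested, in ECM16, an RNA helicase gene of small subunit assembly. From 2 to 8 h its values were 0.611, 0.616, 0.548, 0.471, 0.379, 0.265, 0.461 and 0.508. The slope was -0.0308 ± 0.0192 (adjusted p = 0.414) and the squared term 0.0211 (adjusted p = 0.236, unadjusted p = 0.0315).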

How the data were processed

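Each deposited value is a fraction for 1 site in 1 library. The table's name calls it a cleavage efficiency and, per the file headers, MazF was used; that a higher fraction means more RNA cut is read from that name. The submitters' processing notes list STAR (2.5.3a) and bedtools (2.26.0). Neither labels nor headers state which reads were counted, the coverage, the rule for missing values or the build, so depth is unknown. The hour in a column's name matched it to 1 of 10 samples. A further 4 columns matched no label and were used in no step, so the planned comparison of the ime4 deletion with wild type was not made.

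The 1198 rows gave 1184 sites once 14 repeated positions were merged. Tests ran on the whole table with limma 3.58.1 in R 4.3.3, on the fraction itself, with a mean-dependent prior variance and Benjamini-Hochberg adjustment at 0.05. The slope over the hour and the squared term (centred at 4 h) used the 591 sites with at least 8 values. Late against early used a model of 3 windows (with 3, 3.5 and 4 h between) and the 496 sites that also had 2 values in each window. The steps were tested on simulated data. Neighbouring hours are not replicates, and p-values here take scatter around each fitted course as error, after limma pulls it toward the prior variance. Sequences were read from R64 by gene name, with Python 3.11.15, and 995 gene identifiers matched its locus tags.

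Members and lists were chosen with earlier results of these data known. Every member was named whatever its values, with list sites that were tested and the 3 most alike sites per member. Alternatives covered the scale, centring, scaling, filters, variance model, hours, windows and leaving out each library.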

Additional observations from a re-analysis of the deposited data

How the results depend on the processing

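In every alternative and without any 1 library, 0 of the tested sites listed under ribosomal and small nucleolar RNA genes passed the slope test (limma). Under the same changes, 2 passed for late against early with libraries shifted and 2 with libraries scaled to 1 median, both being copies of the RDN25 site, and 0 in all others. From 0 to 6 h the slope reversed at RDN18-1 (-0.00674), RDN18-2 (-0.00651) and snR86 (-0.0449); none passed. Without single libraries the slope of snR86 ran from -0.0115 to 0.0316 and its late against early difference from -0.107 to 0.0618. That difference was 0.0167 with libraries shifted, 0.00814 scaled and 0.0436 with 3 h among the early libraries. Without single libraries the squared term ran from -0.000307 to 0.000233 at RDN25-1 and from -0.000295 to 0.000249 at RDN25-2, and 0 to 1 of the sites passed.

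Over all sites, 18 passed for slope, 0 with libraries shifted (102 unadjusted, 59 of them falling), 0 scaled (61 falling and 40 rising unadjusted), 0 with at least 4 values (167 and 28), 53 from 0 to 6 h, and 0 to 50 without single libraries. For late against early 18 were lower and 0 higher, with 7 lower and 4 higher (11 in all) after shifting and 16 and 7 after scaling. The count was 0 with at least 1 value in each window (165 lower and 14 higher unadjusted), 0 with 3 h among the early (97 and 5), and 0 to 29 without single libraries. For the squared term 21 passed, 41 on the logit scale, 10 shifted, 10 scaled, 8 with at least 5 values and 3 to 17 without single libraries. Any left-out library moved these counts by over 1.5 times, apart from 0 h for late against early (14) and 3 h for the squared term (17). Where sites were tested in other numbers, the threshold differs by construction; otherwise the cause was not tested. Against the mean of the reference sites in place of their median, the RDN25 copies stood 0.160 above, against 0.110, since the mean is lower. RDN18-1 then lay at -0.0654 (against -0.113), RDN18-2 at -0.0521 (against -0.0997) and snR33 at -0.0178 (against -0.0737), moves within their SDs but over 1.5 times. No paired analysis was possible because the control samples that share replicate numbers have no column tied to them. The fit of the ime4 deletion was not run.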
